A study of Drosophila melanogaster
Mus musculus with 4 samples.

Results

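Accessible chromatin sites at the Xist and Tsix, Firre and Dxz4 loci of mouse chromosome X were examined in B220+CD43+ B cell precursors, library by library. The loci were taken as 3 windows of the mm10 genome, at 50.5 to 50.7 Mb (Firre), 75.7 to 75.8 Mb (Dxz4) and 103.4 to 103.56 Mb (Xist and Tsix), and a site belonged to a window if it started there. This gave 43 of the 69709 sites in the deposited table (23, 8 and 12), beside 1457 other sites on chromosome X. The windows were selected on earlier readings of the same normalized reads per site, in which wild-type replicate 2 stood apart. Differences between libraries and between genotypes at these sites, including the calls of a fit across the whole table, are therefore descriptions and support no claim about the loci. The names are those of the windows, since no mouse gene annotation was used here and the gene part in which a site lies was not determined.

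In female mammals a single X chromosome per cell is kept active and the other is silenced early in development. Xist is a noncoding RNA that is transcribed from the inactive X and coats it, and Tsix, its antisense transcript, holds Xist down on the active X in the mouse. Firre, a long noncoding RNA gene, and Dxz4, a tandem repeat, bind the insulator protein CTCF in many copies on the inactive X, and Dxz4 marks the boundary between its large contact domains in human and mouse.

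Accessibility was measured by ATAC-seq, which uses the Tn5 transposase to tag DNA not covered by nucleosomes, on 50000 cells per library, sorted from bone marrow of C57BL/6 mice aged 8 weeks, with 5% Drosophila S2 cells added. There were 2 wild-type libraries (Hdac3+/+ controls), called WT1 and WT2 here after their replicate numbers, and 2 Hdac3-deleted libraries, called KO1 and KO2. Hdac3 encodes a histone deacetylase of nuclear corepressor complexes. The name of the deposited table contains MB1, a name of the B lineage gene Cd79a, but the labels do not give the means of deletion, whether replicates were separate or pooled animals, or their sex. Neither the loss of Hdac3 nor B cell markers could be checked without an annotation.

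WT2 stood apart from the other 3 libraries on the sex chromosomes. It had 10 peaks on chromosome Y below 50 Mb, with a summit pileup of 24 to 117 extended tags, and the other libraries had 0. Above 50 Mb of chromosome Y, WT1 and WT2 had 14 and 16 peaks and KO1 and KO2 had 11 and 9. Reads in sites totalled 32988999 and 19017456 in WT1 and WT2 and 21177343 and 16132402 in KO1 and KO2, so WT2 was not the shallowest. The genotype comparison by limma and the window levels below are given with and without it.

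The Firre window held the most sites of the 3, and most of them were nearly closed in WT2. Its 23 sites spanned 108.3 kb with a median gap of 2420.5 bp, against a median of 17741 bp between neighbouring sites on chromosome X. Of these sites, 20 were more than 8-fold lower in WT2 than in each other library. The 20 sites held 1.13 to 39.7 normalized reads (scaled by the authors) in WT2, with a median of 11.3. In the other libraries their medians were 204 in WT1, 214 in KO1 and 248 in KO2.

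The most accessible Firre site, chrX:50611778-50612541, had 493 and 39.7 normalized reads in WT1 and WT2 and 542 and 650 in KO1 and KO2. At chrX:50590728-50591821 the values were 367 and 7.94 in wild type and 357 and 356 in Hdac3-deleted cells, in the same order. At chrX:50614930-50615208 they were 294 and 11.3 against 284 and 325. At each of these 3 sites WT2 was far below a close group of the other libraries. The widest gap was at chrX:50622910-50623438, with 272 and 1.13 normalized reads in wild type and 274 and 337 in Hdac3-deleted cells. There WT2 held 1 read, its lowest count at any site, where WT1, KO1 and KO2 held 410, 274 and 254. The size of this gap is therefore uncertain. Across all 23 Firre sites the Hdac3-deleted mean was 0.843 to 1.47 times the value of WT1.

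The low stretch of Firre had a sharp end. It ran from 50549834 to 50623438, and the other site in it, chrX:50607756-50607925, was 7.32-fold lower in WT2. The next site, chrX:50634907-50635585, had 295 and 319 normalized reads in WT1 and WT2 and 280 and 278 in KO1 and KO2. This site was therefore open to a similar extent in all 4 libraries, 11.5 kb beyond the site with the widest gap. The last site of the window, chrX:50657925-50658129, was weak in each library, with 39.8, 38.6, 40.0 and 55.8 normalized reads in the same order.

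**Figure D1:**
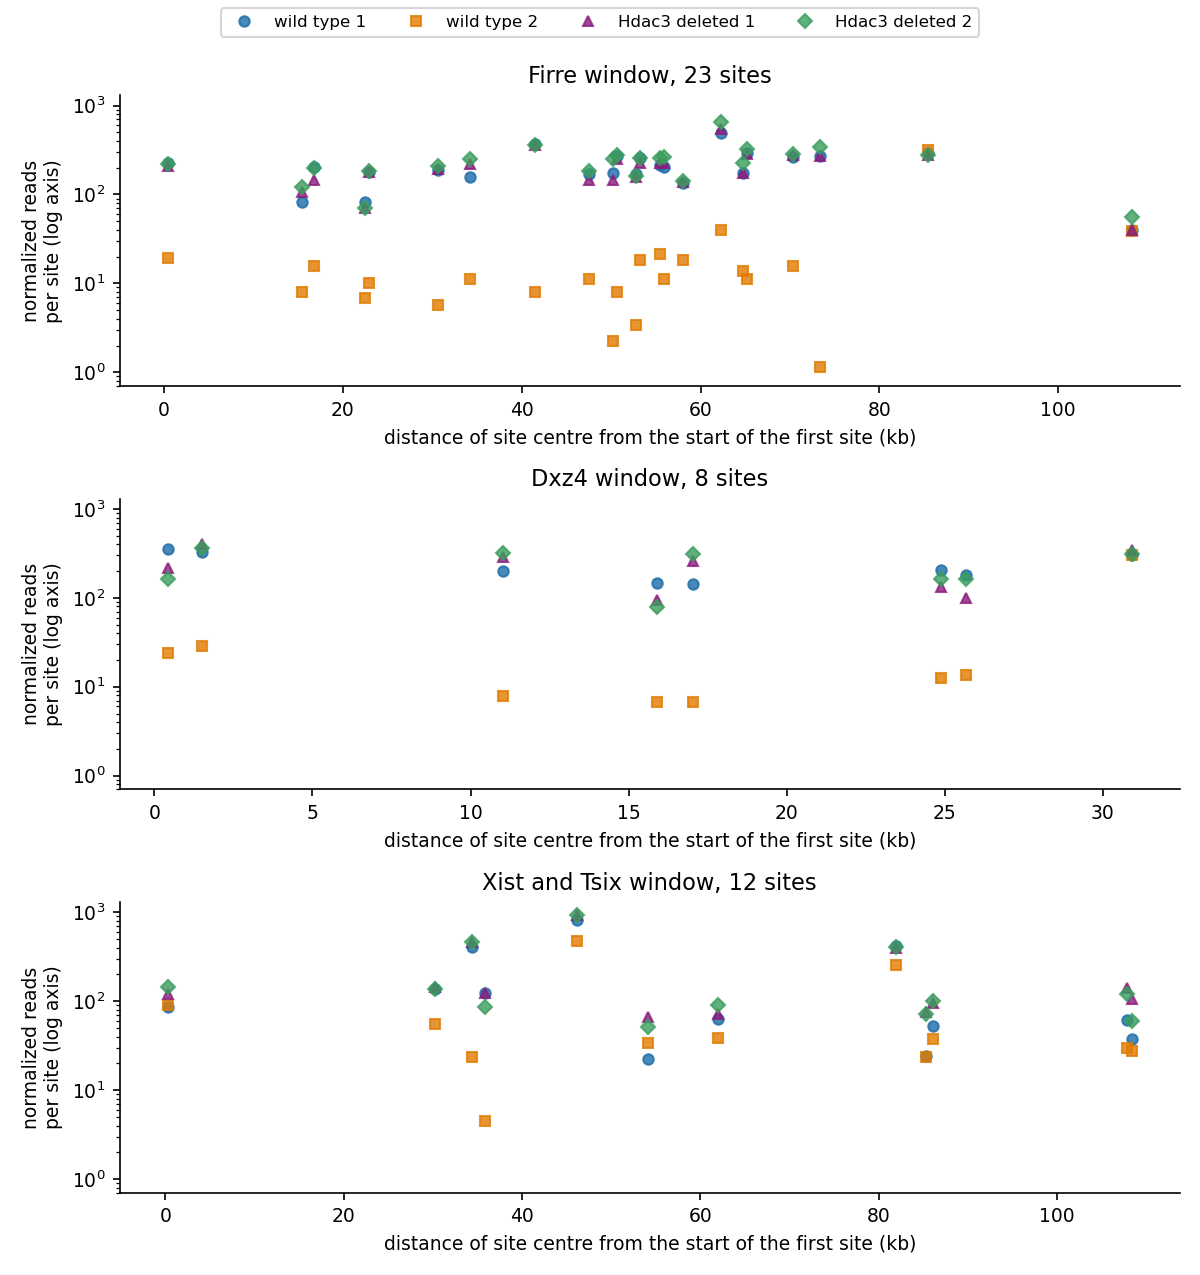
Normalized reads per site (log axis) against the distance of each site's centre from the first site of its window, for the 23 Firre, 8 Dxz4 and 12 Xist and Tsix sites, with 1 point per library. WT2 lies far below the other libraries along the first 21 Firre sites, at 7 of 8 Dxz4 sites and at 2 neighbouring Xist and Tsix sites, and beside them at the remaining Firre and Dxz4 sites.

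Dxz4 showed the same separation of a single library over a shorter stretch. Of its 8 sites, 5 were more than 8-fold lower in WT2, and 2 more were 7.27-fold and 6.75-fold lower. At chrX:75744328-75744797 WT1 and WT2 held 201 and 7.94 normalized reads and KO1 and KO2 held 285 and 320. The broadest site, chrX:75734482-75735629, had 323 and 28.4 against 399 and 364. Its neighbour chrX:75733543-75734395, only 87 bp away, had 352 and 23.8 against 217 and 161. The eighth site, chrX:75764105-75764793, had 301 in both wild-type libraries and 348 and 315 in the Hdac3-deleted libraries, without the gap seen at the other 7.

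The Dxz4 sites also varied among the 3 other libraries, in both directions. Both Hdac3-deleted libraries were above WT1 at 4 sites and below it at 4. The largest ratio to WT1 was at chrX:75750375-75750790, with 143 in WT1, 257 and 311 in KO1 and KO2 and 6.81 in WT2. Ending 727 bp before it, chrX:75749199-75749648 held 147 in WT1, 94.9 and 79.7 in the Hdac3-deleted libraries and 6.81 in WT2. The ratio of the Hdac3-deleted mean to WT1 ranged from 0.536 to 1.99 over the 8 sites, a wider range than 0.843 to 1.47 at Firre. In the Xist and Tsix window it ranged from 0.846 to 3.09. Each ratio rests on a single wild-type library, and the difference between the loci was not tested.

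In the Xist and Tsix window the gap was confined, at the 8-fold level, to 2 of 12 sites, which lie 980 bp apart. The first, chrX:103481368-103482172, was the third most accessible site of the window and held 402 and 23.8 normalized reads in WT1 and WT2 and 463 and 465 in KO1 and KO2. The second, chrX:103483152-103483383, held 124 and 4.54 against 124 and 85.0. A smaller gap was seen at chrX:103477576-103477844, with 139 and 55.6 in wild type and 143 and 137 in Hdac3-deleted cells.

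The most accessible site of all 43, chrX:103493017-103494070, stayed well open in WT2. It had 816 and 473 normalized reads in WT1 and WT2 and 936 and 921 in KO1 and KO2, so WT2 was 1.73-fold below the lowest other library. At chrX:103529059-103529759 the values were 420 and 256 against 393 and 405, a 1.53-fold gap. By contrast, chrX:103501463-103501667 was lowest in WT1, with 22.6 and 34.0 in wild type and 65.9 and 51.8 in Hdac3-deleted cells. WT2 was the lowest library at 40 of the 43 sites, but the size of its gap ranged widely in this window. All 43 sites had peaks in other libraries, and places with a peak in WT2 alone are not among them.

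Some of the weaker Xist and Tsix sites separated by genotype, with both wild-type libraries low. These sites were picked out after their values were seen. At chrX:103532683-103532897 the values were 23.9 and 23.8 in WT1 and WT2 and 75.9 and 71.7 in KO1 and KO2. At chrX:103555132-103555394 they were 61.1 and 29.5 against 140 and 120. At chrX:103555709-103555898 they were 37.9 and 27.2 against 107 and 59.8. Both Hdac3-deleted libraries were above both wild-type libraries at 9 of the 12 Xist and Tsix sites, at 10 of 23 Firre sites and at 4 of 8 Dxz4 sites. Over all sites of the table this held for 30.1%. Where WT2 is far below the rest, as at chrX:103481368-103482172, this order only needs WT1 to be below KO1 and KO2. WT2 was the lowest library at 10 of the 12 Xist and Tsix sites, 22 of 23 Firre sites and 8 of 8 Dxz4 sites, so nothing about genotype is read from these counts.

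The 27 sites with a gap of more than 8-fold are by that choice low in WT2, and their reads give the depth behind the low values. WT2 held 294 reads in these sites, with an exact 95% Poisson interval of 261 to 330 that covers counting error only. The other libraries held 9027, 6161 and 5163 (WT1, KO1 and KO2). Per kb of site this is 22.9 reads in WT2 (interval 20.4 to 25.7), where the mean density of its tags over the effective genome was 27.9 per kb after the authors' duplicate filter and 34.9 per kb before it. The same sites were 18.6, 15.5 and 20.5 times the filtered tag density in WT1, KO1 and KO2, and 0.820 times in WT2. This mean density includes the tags in accessible sites. It is therefore above the density between sites, which was not computed, and a ratio below 1 does not place WT2 below that level. The other 16 sites held 1568 reads in WT2, against 4553, 3270 and 2421 in WT1, KO1 and KO2. In a bulk library, a site closed in most cells and a site less open in each cell cannot be told apart.

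Peaks called by the authors in each library also set WT2 apart. They rest on the same libraries as the values on which the windows were selected, so they are no separate support. In the Firre window 28 and 2 peaks were called in WT1 and WT2 and 25 in each Hdac3-deleted library. Of the 2 in WT2, chrX:50537233-50537428 (pileup 26) overlapped no peak of another library and none of the 43 sites. Dxz4 had 11 and 1 against 8 and 10, and the Xist and Tsix window 10 and 4 against 14 and 12. Of the 43 sites, 40 overlapped a peak in WT1, 42 in each Hdac3-deleted library and 6 in WT2. Each of the 43 sites overlapped a peak in more than 1 library. Places with a peak in WT2 alone are not among them, so these counts are in part set by which sites the table holds. Those 6 included chrX:50634907-50635585 of Firre, chrX:75764105-75764793 of Dxz4 and 4 Xist and Tsix sites, and none of the 27 sites with a gap of more than 8-fold.

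**Figure D2:**
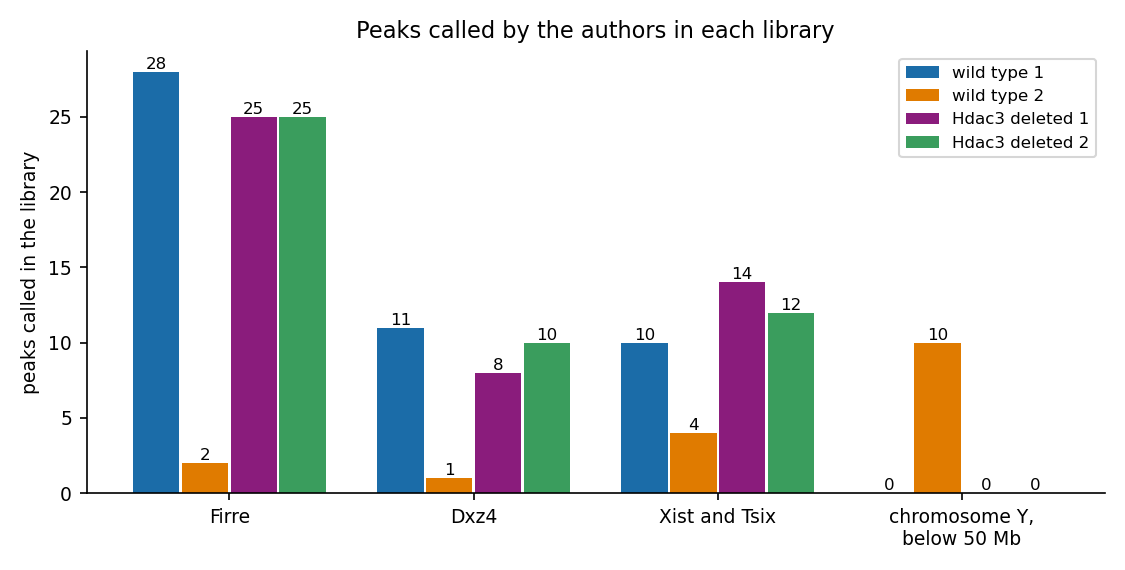
Number of peaks called by the authors in each of the 4 libraries in the 3 windows and on chromosome Y below 50 Mb. WT2 has 2, 1 and 4 peaks in the windows, fewer than each other library, and the 10 peaks on chromosome Y were all called in it.

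In the 3 other libraries the read density around peaks in the middle of Firre was also above the genome-wide level. At some outer Firre peaks of each it was at that level. The authors' fold enrichment sets each pileup against a local background, taken over 10 kb where that exceeds the genome-wide level, and this background can be worked back from both values. In the middle of Firre, at the peak starting at 50602944 in WT1, it was 4.20 times the genome-wide background. At the peaks of the same site it was 3.74 and 5.41 times in KO1 and KO2. It was lower, at most 2.49 times, around Dxz4 peaks, and at most 3.05 times around Xist and Tsix peaks. WT2 had no peak in the middle of Firre, so there is no value of it to set beside these. At the peak that all libraries share, in chrX:50634907-50635585, the background was 1.16 times in WT2, 1.28 times at the higher of 2 peaks in WT1, 1.11 times in KO1 and 1.35 times in KO2. The background includes the neighbouring peaks, which lie close together in Firre, and a library without a peak gives no value at that place.

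**Figure D3:**
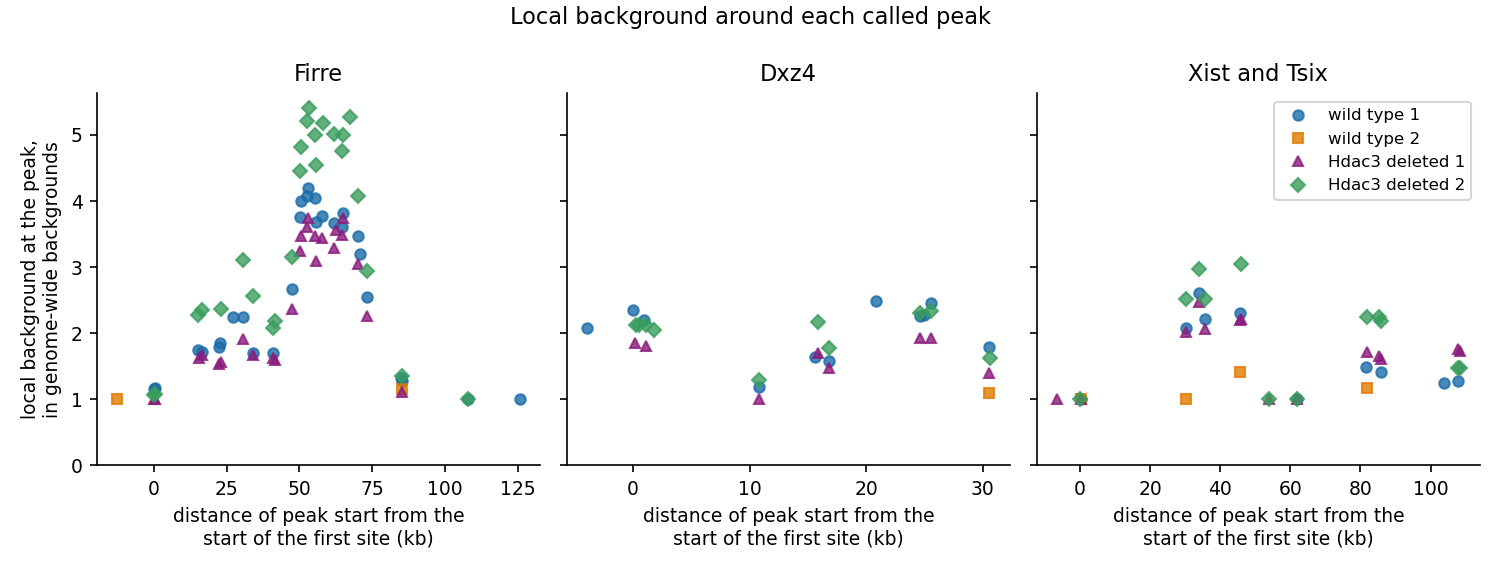
Local background at each called peak, in multiples of the genome-wide background of its library, against the distance of the peak from the first site of the window. In Firre it rises to 4.20, 3.74 and 5.41 in WT1, KO1 and KO2, in the dense middle where WT2 has no peak. The few peaks of WT2 in the 3 windows lie at 1.41 or lower, at places where its peaks were called.

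A gap of more than 8-fold in WT2 was rare outside the windows, and smaller gaps were seen at some other chromosome X sites. Of all 69709 sites 28, or 0.0402%, were more than 8-fold lower in WT2 than in each other library, and 27 of these lay in the 3 windows. None of the 1457 other chromosome X sites had such a gap, and 1 had a gap of more than 4-fold. The single site elsewhere, chr9:84213971-84214208, was weak, with 17.3 and 1.13 normalized reads in WT1 and WT2 and 108 and 50.5 in KO1 and KO2. At the 8-fold limit, the nearest site inside was chrX:50566390-50566866 at 9.12-fold and the nearest outside was chrX:50607756-50607925 at 7.32-fold. On the autosomes WT2 had 1 such site, and WT1, KO1 and KO2 had 1, 5 and 11 sites at which they alone were this low.

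Chromosome X as a whole was not depleted in WT2. The other chromosome X sites took 2.09% and 2.01% of the reads in sites in WT1 and WT2, and 2.01% and 2.06% in KO1 and KO2. At these sites the median log2 ratio of WT2 to the mean of the other libraries was -0.04, against -3.69 at the 43 sites. Of the 3 nearest sites on each side of each window, none was more than 1.58-fold lower in WT2. The site before Dxz4, chrX:75673657-75674666, had 2265 and 2028 normalized reads in wild type and 2019 and 2289 in Hdac3-deleted cells. The sex of the mice is not given, and the part of sex, or of the chromosome Y peaks of WT2, in these differences was not tested.

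**Figure D4:**
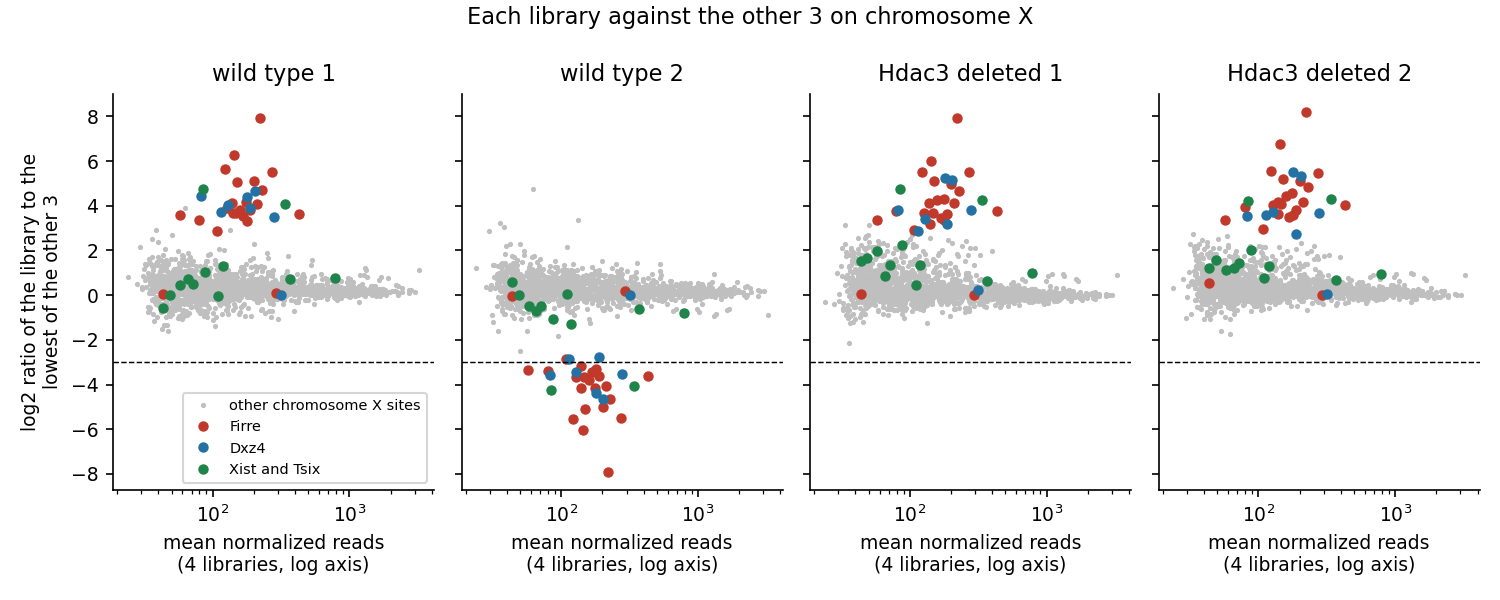
Log2 ratio of each library to the lowest of the other 3 at every chromosome X site, against the mean of the 4 libraries (log axis), with the dashed line at 8-fold lower. Below the line are the 27 sites of the windows in the panel of WT2. Where WT2 is lowest no other library can fall below 0, and the high values of the window sites in the other panels come from the same low library.

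Outside the windows, the largest gap on chromosome X was at a weak site, chrX:18284686-18284888, with 59.1 and 9.08 normalized reads in WT1 and WT2 and 80.9 and 51.8 in KO1 and KO2, or 5.71-fold. Near it, chrX:18187201-18187543 had 96.3 and 27.2 in WT1 and WT2 and 142 and 114 in KO1 and KO2, or 3.54-fold. Both were named after their values were seen. The sites chrX:18177759-18178464 and chrX:18161774-18163764, given below, lie in the same stretch, so these gaps are not scattered single sites. Among sites whose mean in the other 3 libraries reached the median site (125 normalized reads), the first was chrX:120290098-120290590, with 139 and 59.0 in wild type and 218 and 232 in Hdac3-deleted cells, a gap of 2.36-fold. Under that limit chrX:113826690-113827130 had a gap of 2.08-fold, and chrX:152232513-152233803, chrX:18177759-18178464, chrX:61185919-61186952 and chrX:18161774-18163764 had gaps of 1.94-fold, 1.91-fold, 1.86-fold and 1.85-fold. On other chromosomes, under the same limit, chr15:78583357-78583650 had a gap of 2.75-fold, chr13:96506410-96506696 of 2.55-fold and chr5:105219002-105219312 of 2.41-fold. The limit was not applied to the 27 window sites, whose gaps of 9.12-fold to 240-fold had a median of 16.8-fold. Likeness here is the ratio of WT2 to the lowest other library, over the 4 libraries.

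The comparison of genotypes at the 43 sites changed with the libraries that entered it. Of the 43 sites, 16 were called higher and 0 lower in Hdac3-deleted cells by limma on log2 values with 1 added (p adjusted over all sites by Benjamini-Hochberg, threshold 0.05). Over all sites, 20.6% were called and 11.7% were called higher. Since the windows were selected on the values of these libraries, nothing is read from the count. It was 6 with the edgeR quasi-likelihood test, 3 with the DESeq2 Wald test and 2 at a threshold of 0.01. Over all sites these settings called 14618, 11088 and 6444, against 14335 in the main fit. The median log2 fold change was 1.77 over the 43 sites and -0.01 over all sites. Without WT2 the median over the 43 sites was 0.13 and 4 sites were called, against 18.4% of all sites. In that fit WT1 stands alone and is assumed to vary like the Hdac3-deleted libraries. The median log2 fold change over the 43 sites was 3.49 without WT1, 1.75 without KO1 and 1.69 without KO2. With all 4 libraries, an FDR under 0.05 is given for 28 of the 43 sites in the authors' deposited table, all of them higher, against 25.1% of all sites.

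By window, the mean log2 level of Firre was 7.58 and 3.76 in WT1 and WT2 and 7.56 and 7.76 in KO1 and KO2. The difference between the genotype means was 1.99, less than the SD of 2.70 between the wild-type libraries, and it was 0.07 without WT2. Dxz4 had levels of 7.78 and 4.31 against 7.67 and 7.73, a difference of 1.65 (SD 2.46 in wild type) that became -0.09 without WT2. The Xist and Tsix window had 6.65 and 5.53 against 7.28 and 7.17, a difference of 1.13 (SD 0.79 in wild type), and 0.58 without WT2. The difference that remained rests on WT1 alone for wild type and was not tested. Over the other chromosome X sites the levels were 7.25, 7.21, 7.28 and 7.29. The means have n = 2 each, and a two-sided exact permutation test of 2 libraries against 2 cannot give a p below 0.333.

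The 4 sites called without WT2 were 2 of Dxz4 and 2 of the Xist and Tsix window, and 0 of Firre. At Dxz4 chrX:75750375-75750790 was higher and chrX:75733543-75734395 lower in Hdac3-deleted cells, with log2 fold changes of 0.98 and -0.91 in that fit. With all 4 libraries the latter site had a positive log2 fold change and was not called (adjusted p = 0.354, limma), so its direction turned with WT2. In the Xist and Tsix window chrX:103532683-103532897 and chrX:103555132-103555394 were higher, by 1.59 and 1.07. These 2 and chrX:75750375-75750790 were among the 16 called with all libraries. The first of them, at which both wild-type libraries held about 24 normalized reads, had the same log2 fold change of 1.59 in both fits.

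**Figure D5:**
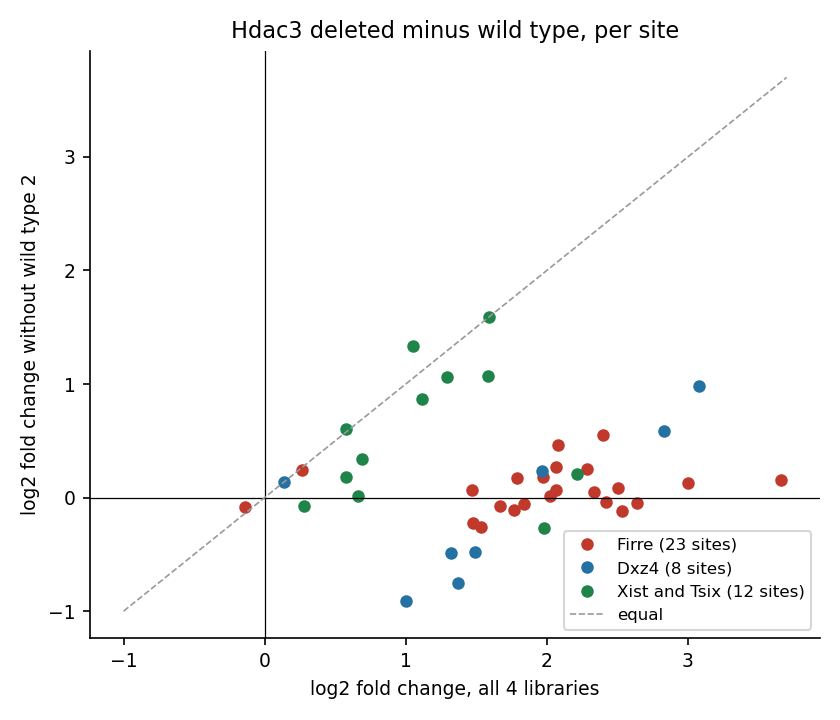
Log2 fold change (Hdac3 deleted minus wild type) of the 43 sites without WT2 against that with all 4 libraries, with equal values on the dashed line. Firre sites spread along the horizontal axis up to 3.66 and lie between -0.26 and 0.55 on the vertical axis, while chrX:103532683-103532897 lies on the line at 1.59.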

How the data were processed

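The submitters' processing notes name DiffBind 1.10.2, edgeR, MACS2 2.0.10, SAMtools and Bowtie2 2.2.4, and the builds mm10 and dm3, without their order or settings. Each library had its own peak calls, made per the file headers with MACS 2.0.10.20131216, without a control, at a q cutoff of 0.001, extending tags to 140 bp, on reads whose name states filters for mapping quality and duplicates. Reads in repeats such as those of Dxz4 and Firre can be lost by such a filter.

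The site table was deposited by the authors with 1 signal column of normalized reads per library, matched to samples through the names of the peak files. It also carries the authors' comparison of genotypes, as deposited log2 concentrations and log2 folds with a p-value and an FDR. In the peak lists, per the file headers, the pileup is an unscaled signal, the scores are −log10 p-value and q-value, and the fold enrichment is a ratio to the library's own background. Within each library 100% of values were multiples of 1 step (tolerance 0.001 reads), and division by it recovered whole reads. The edgeR quasi-likelihood test on these reads called 14618 sites.

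Sites were tested with limma 3.58.1 (R 4.3.3) after adding 1 and taking log2, with a variance trend and Benjamini-Hochberg adjustment over all 69709 sites at 0.05, since the table holds scaled reads; a fold change on this scale understates low sites. The procedure was run on simulated data in which no library stood apart, unlike WT2 in the windows. That run therefore says nothing about the fit at the window sites. On the deposited values limma called 14335 sites (22991 at an unadjusted p under 0.05). Alternatives used edgeR 4.0.16 and DESeq2 1.42.0. Nothing says that replicates are separate animals, so p-values may reflect technical spread alone. Scaling sets the median change near 0, and the S2 cells were not used for scaling here (0 Drosophila features among the sites), so a global shift was not measured.

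Members and lists were chosen with earlier results of these data known. Per window, the 4 most accessible sites and those with the largest and smallest ratio of WT2 to the lowest other library were named, and outside the windows the 6 chromosome X sites and 3 others with the lowest ratio among sites whose mean in the other 3 libraries reached the median site. Planned marker lists were not used, for want of a mouse annotation.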

Additional observations from a re-analysis of the deposited data

How the results depend on the processing

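The count of calls at the 43 sites moved by over 1.5 times with the test, the threshold, the block and each library left out. Against 16 with limma, the edgeR quasi-likelihood test called 6 of them, the DESeq2 Wald test 3 and an adjusted p under 0.01 left 2. Leaving out a library gave 4 to 36. For all sites the stricter threshold gave 6444 calls and leaving out a library 6595 to 14683, and for the other chromosome X sites, with 248 calls, 108 and 128 to 249 (198 without WT2). Other pseudocounts, scalings and a minimum of 50 reads kept these counts within 1.5 times. For all sites the edgeR and DESeq2 tests did so too, with 14618 and 11088 calls. The difference between genotype means ranged, with a library left out, from 0.07 to 3.90 for Firre, from -0.0871 to 3.39 for Dxz4, which changed sign without WT2, and from 0.58 to 1.69 for the Xist and Tsix window. Of the 43 sites 27 were low in WT2 alone at 8-fold and 14 at 16-fold; at 4-fold 1 other chromosome X site and 4 autosomal sites were low, and at 16-fold 0 autosomal sites. Peak counts at a stricter q, and counts of sites with a peak at a wider overlap, moved by at most 1.5 times. The causes of these shifts were not tested.

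With a replicate block 35 of the 43 sites were called, 14217 of all sites and 247 of the other chromosome X sites. Same-numbered deviations correlated at -0.10 across sites, so a crossed replicate block was added after seeing the data: it called 36 of the 43 sites, 19405 of all and 352 of the other chromosome X sites. The samples share only a number. Depth limits the low sites: a value of WT2 as low as 1.13 normalized reads is 1 read.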

Other observations

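More than 1.5-fold lower in WT2 than in each other library were 53 of the 1457 other chromosome X sites (3.64%) and 1.46% of autosomal sites. On chromosome X the same held for 68 sites in WT1 (4.67%), 46 in KO1 (3.16%) and 25 in KO2 (1.72%), so over all these sites WT2 did not have the most. Among sites with a mean of at least 309.8 normalized reads the counts on chromosome X were 11 of 385 (2.86%) for WT2 and 1, 0 and 0 for WT1, KO1 and KO2, with 12 of 17035 autosomal sites (0.0704%) for WT2. This subset was chosen after the values were seen, and no difference in these shares was tested. The most accessible of the 11, chrX:18161774-18163764, held 4139 and 1881 normalized reads in WT1 and WT2 and 3475 and 3487 in KO1 and KO2. At chrX:152232513-152233803 the values were 1591 and 739 against 1430 and 1488, and at chrX:150477707-150478768 they were 1472 and 830 against 1486 and 1586. At these 3 sites the gap was 1.85-fold, 1.94-fold and 1.77-fold.

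Another 3 of the 11 sites lie beyond the Xist and Tsix window, from 103604792 to 103622740, the first 48.9 kb from the last window site. A nearer site at 7.74 kb, chrX:103563636-103564018, was not lowest in WT2. It held 130 and 117 normalized reads in WT1 and WT2 and 76.9 and 55.8 in KO1 and KO2. The site chrX:103621787-103622740 held 1059 and 634 normalized reads in WT1 and WT2 and 1150 and 1224 in KO1 and KO2. At chrX:103616103-103617379 the values were 1112 and 655 against 1014 and 1144, and at chrX:103604792-103605964 they were 333 and 211 against 342 and 400.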
